A study of Mus musculus with 32 samples.

Results

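The 10 genes described here code for keratins and cell junction proteins of epithelia: *Krt8*, *Krt18*, *Krt19*, *Epcam*, *Cdh1*, *Ocln*, *Cldn3*, *Cldn4*, *Cldn7* and *Tjp1*. They were found by symbol among the 29511 genes of the count table and were chosen from a list drawn up on the comparison of tumors between host genotypes, so their values in that comparison are a description. The study asked what the loss of the chloride intracellular channel protein CLIC4 in the host does to primary mammary tumors and to lungs before metastasis. RNA-seq was done on 32 samples from female FVB/N mice that were wildtype (WT) or constitutive *Clic4* knockout (KO) littermates, 6 to 8 weeks old when used. The 6 WT and 6 KO primary tumors grew for 14 days from 6DT1 cells, a line explanted from a mouse mammary tumor driven by *Myc* under the MMTV promoter, placed in the fourth mammary fat pad. Lungs came from tumor-bearing hosts at 14 days (6 WT and 6 KO) and from mice without a graft (4 WT and 4 KO, called control lungs). The grafted 6DT1 cells carry intact *Clic4* in both hosts, so the genotype is that of the host's cells alone, and every tumor derives from the same line.

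Summed expected counts ran from 4446323 to 8318711 per sample, with a median of 5384934. *Clic4* checked the labels. In control lungs it ranged from 160.3 to 174.7 FPKM (a level scaled for transcript length and library size) in WT and from 55.4 to 67.6 FPKM in KO, and in tumors from 74.7 to 82.2 FPKM in WT and from 58.9 to 69.0 FPKM in KO hosts, with no overlap in either tissue. The KO allele lacks the region around exon 2, and reads from the rest of the gene still count toward these values. Lung identity was checked on 8 airway marker genes, whose summed level was 6790 to 8590 CPM (counts scaled to library size) in lungs and 1.79 to 4.57 CPM in tumors. The summed markers of mammary epithelium did not set the tumors apart from lungs (12 genes, at most 249 CPM in tumors and 140 to 218 CPM in lungs). Its 5 milk protein genes did not follow 1 pattern. *Csn1s1* had 33.1 CPM in WT replicate 6, 12.3 CPM in KO replicate 2 and 6.74 CPM in KO replicate 5, at most 0.446 CPM in the other 9 tumors and 0 in every lung. *Csn2* had 48.8 CPM in WT replicate 6 and at most 4.89 CPM in the other 11. *Csn3* had 7.54 to 20.5 CPM in all 12 tumors (14.8 CPM in WT replicate 6), *Lalba* at most 1.34 CPM (0 in WT replicate 6) and *Wap* at most 0.653 CPM. The tumors also differed in markers of skin and basal epithelium. Genes of cornified skin (*Krt1*, *Krt10*, *Lor* and 5 others, listed after the data had been seen) summed to between 6.29 and 1130 CPM in tumors against 4.48 to 11.2 CPM in lungs. The 6 basal keratins (*Krt5*, *Krt14* and 4 others) summed to between 3.84 and 1030 CPM in tumors against 0.358 to 3.48 CPM in lungs.

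Epithelial cells hold their shape with keratin filaments and hold to each other at junctions. *Krt8* codes for a type II keratin that pairs with the type I keratins of *Krt18* and *Krt19* in simple epithelia. *Cdh1* codes for E-cadherin, the adhesion protein of adherens junctions, and *Epcam* for an epithelial adhesion molecule of the lateral membrane. Tight junctions seal the space between cells: claudins (*Cldn3*, *Cldn4*, *Cldn7*) form the strands, occludin (*Ocln*) lies within them, and ZO-1 (*Tjp1*) is the scaffold that ties them to actin. *Tjp1* is also used outside epithelia, for example in endothelium and fibroblasts. Repressors of the Snail and Zeb families, which bind the E-box CACCTG, lower several of these genes when epithelial cells take on a mesenchymal state. In a bulk tumor, fewer epithelial cells and less RNA per cell cannot be told apart.

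The bases before the start sites are shown for *Epcam*, *Cldn4* and *Ocln*, because in the tumors *Epcam* and *Cldn4* varied together and *Ocln* did not follow them. Of the 10 genes, 8 matched the RefSeq promoter table (GRCm38.p6); *Krt19* and *Cdh1* did not. Capitals mark CACCTG, read on both strands (CAGGTG on the other). The sequences are the 250 bases before the start, read on the gene's strand: *Epcam* at chr17:87635729-87635978 (plus strand), *Cldn4* at chr5:134946935-134947184 (minus strand) and *Ocln* at chr13:100552719-100552968 (minus strand).
Epcam: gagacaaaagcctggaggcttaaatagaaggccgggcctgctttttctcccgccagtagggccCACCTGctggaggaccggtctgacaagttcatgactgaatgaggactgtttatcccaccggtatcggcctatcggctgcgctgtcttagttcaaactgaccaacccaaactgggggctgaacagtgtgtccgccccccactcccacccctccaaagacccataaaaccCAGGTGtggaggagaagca
Cldn4: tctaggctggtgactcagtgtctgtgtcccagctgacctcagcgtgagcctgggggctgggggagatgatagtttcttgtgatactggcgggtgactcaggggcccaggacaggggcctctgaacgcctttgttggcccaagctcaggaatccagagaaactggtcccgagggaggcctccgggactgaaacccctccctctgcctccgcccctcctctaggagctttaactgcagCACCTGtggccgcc
Ocln: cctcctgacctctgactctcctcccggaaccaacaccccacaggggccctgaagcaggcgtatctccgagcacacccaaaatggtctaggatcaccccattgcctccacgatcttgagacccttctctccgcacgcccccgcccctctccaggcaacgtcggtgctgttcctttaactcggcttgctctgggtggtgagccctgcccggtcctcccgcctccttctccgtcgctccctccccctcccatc
*Epcam* holds the letters at 2 places, beginning 187 and 19 bases before the start, *Cldn4* at 1 place, 14 bases before it, and *Ocln* at none in this window. A further *Ocln* start in the table, downstream of this one, has a window with 2 matches. *Krt8* and *Krt18*, which varied against *Epcam* in the tumors, each hold 1 match. *Cldn3*, which varied with *Epcam*, holds 0, and so does *Tjp1*. *Cldn7* holds 0 in 1 window and 2 in its other. A link between the E-box and the levels in tumors was not tested. In all, 6 of the 10 windows of the 8 matched genes held the E-box, beside 17.2% of 32851 windows of the same length over all genes. A match is a run of letters and not a measured binding site. By position, *Krt8* and *Krt18* are neighbors on chromosome 15, with 23.7 kb between them, and *Cldn4* and *Cldn3* on chromosome 5, with 39.3 kb between them.

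The levels of the 10 genes in tumors covered a wide range, and the order differed from that in lungs. Between genes, levels are compared per length, in FPKM. *Krt8* was the highest in tumors with 203 ± 31.3 FPKM, followed by *Krt18* with 143 ± 22.2 FPKM (SD, n = 12 tumors). *Tjp1* stood at 48.9 ± 6.00 FPKM and *Krt19* at 23.8 ± 6.69 FPKM. The other 6 lay far below: *Epcam* at 5.52 ± 3.82 FPKM, *Cdh1* at 4.46 ± 3.15 FPKM, *Ocln* at 3.94 ± 2.0 FPKM and *Cldn4* at 2.32 ± 1.27 FPKM. *Cldn3* was at 1.19 ± 1.23 FPKM and *Cldn7* at 1.11 ± 1.16 FPKM, and 1 WT tumor was listed at 0 for each. Each step from *Epcam* down to *Cldn7* was smaller than the sum of the neighboring SDs, so these 6 have no firm order. The steps among *Krt8*, *Krt18*, *Tjp1*, *Krt19* and *Epcam* were larger than that sum.

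In lungs *Tjp1* was the highest with 96.7 ± 6.76 FPKM (SD, n = 20 lungs), then *Krt19* with 75.0 ± 9.46 FPKM. *Cdh1* followed with 54.8 ± 2.37 FPKM beside *Krt8* with 54.3 ± 8.64 FPKM, a step within their spread. *Cldn4* was the lowest there with 0.737 ± 0.178 FPKM. In FPKM the 12 tumors and 20 lungs did not overlap for 9 of the 10 genes, beside 34.9% of 16783 genes. *Cldn3* and *Cldn7*, which are among the 9, passed the filter on low counts through the lungs alone. Their part in this count therefore carries no weight. *Cldn4* overlapped, with 0.570 to 4.48 FPKM in tumors and 0.470 to 1.12 FPKM in lungs.

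**Figure D1:**
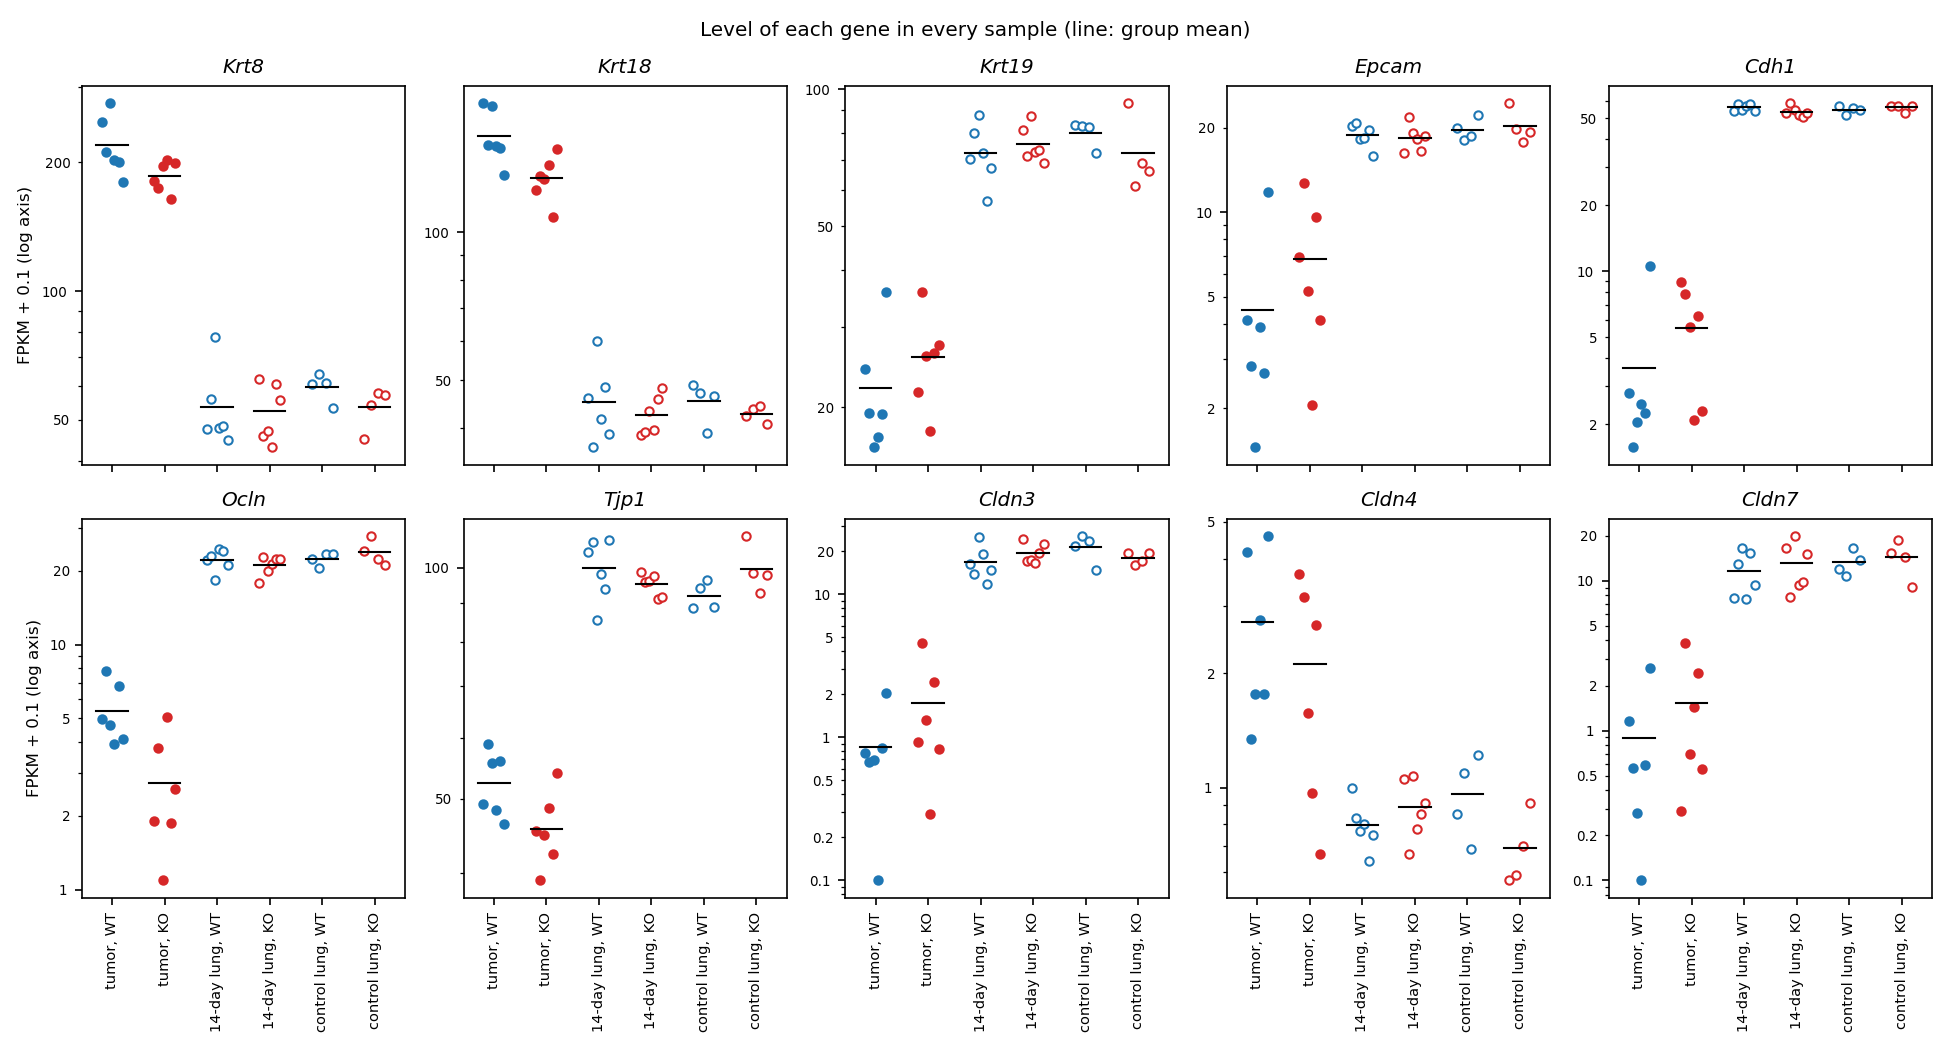
Level of each of the 10 genes in every sample, as FPKM plus 0.1 on a log axis, with a panel per gene. Each point is 1 sample, filled for tumors and open for lungs, blue for WT and red for KO, and the line is the group mean. *Krt8* and *Krt18* lie higher in tumors than in every lung sample, *Krt19*, *Epcam*, *Cdh1*, *Ocln*, *Cldn3*, *Cldn7* and *Tjp1* lie lower, and *Cdh1* spans 1.47 to 10.47 FPKM in tumors against 50.3 to 58.3 FPKM in lungs.

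Tumors against 14-day lungs of the same genotype were compared with edgeR's quasi-likelihood test, with Benjamini-Hochberg adjustment over 16825 genes and limits of an adjusted p under 0.05 and at least 2-fold. The tissues differ broadly, and 39.2% of all genes passed in WT and 37.9% in KO hosts. Of the 10 genes, 9 passed in WT and 10 in KO. *Cldn4* reached the filter on low counts through the tumors and *Cldn3* and *Cldn7* through the lungs, each where it is the higher, so these 3 had to differ and their calls carry no weight. The other 7 passed the filter in tumors alone and in lungs alone; 2 of them were called higher in tumors in both genotypes, and 4 lower in WT and 5 lower in KO hosts. Over the 13342 genes that did so, 15.9% were called higher and 13.8% lower in WT hosts, and 15.6% and 12.8% in KO hosts. The counts of the other gene lists below are likewise over the genes that passed the filter in each tissue alone, a restriction made after the data were seen.

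The genes of both partner keratins of the simple filament were higher in tumors. The log2 fold change of *Krt8* was 2.10 ± 0.12 (SE) in WT hosts (adjusted p = 8.15e-17) and 1.92 ± 0.12 in KO hosts (adjusted p = 7.94e-16). *Krt18* followed with 1.86 ± 0.10 in WT and 1.69 ± 0.10 in KO hosts. *Krt19*, the other type I keratin, was lower in tumors, by a log2 fold change of -1.76 ± 0.15 in WT and -1.51 ± 0.15 in KO hosts. Of the 3 other simple keratins listed, 1 could be compared: *Krt7* was lower still, at -6.25 ± 0.22 in WT hosts (adjusted p = 2.38e-22), with 0.738 ± 0.767 FPKM in WT tumors against 50.7 ± 1.76 FPKM in WT 14-day lungs (SD, n = 6 each).

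*Cdh1* and *Epcam*, the genes of the adhesion proteins among the 10, were lower in tumors. The log2 fold change of *Cdh1* was -3.95 ± 0.32 in WT (adjusted p = 7.66e-13) and -3.23 ± 0.30 in KO hosts (adjusted p = 2.85e-11). Its 20 lungs lay between 205.7 and 245.3 CPM and its 12 tumors between 6.15 and 46.6 CPM. *Epcam* differed by -2.05 ± 0.31 in WT and by -1.37 ± 0.30 in KO hosts. Among 10 genes of adherens junctions, 3 were lower and 1 was higher in tumors in each genotype, and *Nectin3*, which codes for a nectin, was the most certain, at -2.06 ± 0.07 in WT hosts (adjusted p = 6.24e-22). The higher one lay near the limit in KO hosts, at 1.02, and DESeq2 called 0 of these genes higher there. Of 7 other genes of the epithelial surface 7 were lower in both genotypes, with the protease inhibitor gene *Spint2* at -3.36 ± 0.23 in WT hosts.

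For the claudins of the strands the fold changes are given as values only, since the filter fixed their signs. *Cldn3* was at -4.36 ± 0.37 in WT and -3.48 ± 0.32 in KO hosts, and *Cldn7* at -3.81 ± 0.45 and -2.78 ± 0.40. These rest on few reads: *Cldn3* had 0 to 22 expected counts per tumor and *Cldn7* had 0 to 19. *Cldn4* was at 1.94 ± 0.37 in WT and 1.41 ± 0.37 in KO hosts, from 6 to 37 counts per tumor. *Ocln* differed by -2.04 ± 0.15 in WT and -3.25 ± 0.17 in KO hosts. *Tjp1* differed by -0.90 ± 0.06 in WT hosts, under 2-fold, and by -1.05 ± 0.06 in KO hosts, just past it. Of 12 further tight junction genes, 8 were lower in WT and 9 in KO hosts and 0 were higher, among them *Cgn* (cingulin) at -2.72 ± 0.16 in WT hosts. Of the 13 other claudins listed 1 passed the filter in both tissues, *Cldn12*, at -0.75 ± 0.13 in WT hosts, under 2-fold. *Cldn18*, the claudin of the alveolar epithelium, was at 142.6 to 166.6 FPKM in WT 14-day lungs and at most 0.05 FPKM in WT tumors.

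In the desmosome list, 3 of 7 genes were higher in tumors and 0 lower in each genotype, with *Dsg2* at 2.44 ± 0.15 and *Dsp* (desmoplakin) at 1.72 ± 0.14 in WT hosts. None of the 6 basal keratins passed the filter in lungs, so they have no count; *Krt14* ran from 1.38 to 114.5 FPKM in WT tumors and from 0.190 to 0.770 FPKM in WT 14-day lungs. Of 11 mesenchymal genes, 6 were higher and 2 lower in WT hosts, and 5 higher and 1 lower in KO hosts. *Vim* (vimentin) stood at 1802 ± 115 FPKM in WT tumors and 444 ± 22.4 FPKM in WT 14-day lungs (SD, n = 6 each). The E-box repressor *Zeb1* was lower in tumors by under 2-fold, at -0.63 ± 0.06 in WT and -0.72 ± 0.06 in KO hosts, with 26.2 ± 2.0 FPKM in WT and 26.1 ± 1.66 FPKM in KO tumors. The list also holds *Zeb2*, *Snai1* and *Snai2*, whose values are not given here, so *Zeb1* does not stand for the E-box repressors as a group. Of 9 regulators of epithelial identity, 1 was higher and 6 lower in WT hosts, and 1 higher and 4 lower in KO hosts; *Grhl2* was at -3.34 ± 0.37 in WT hosts.

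**Figure D2:**
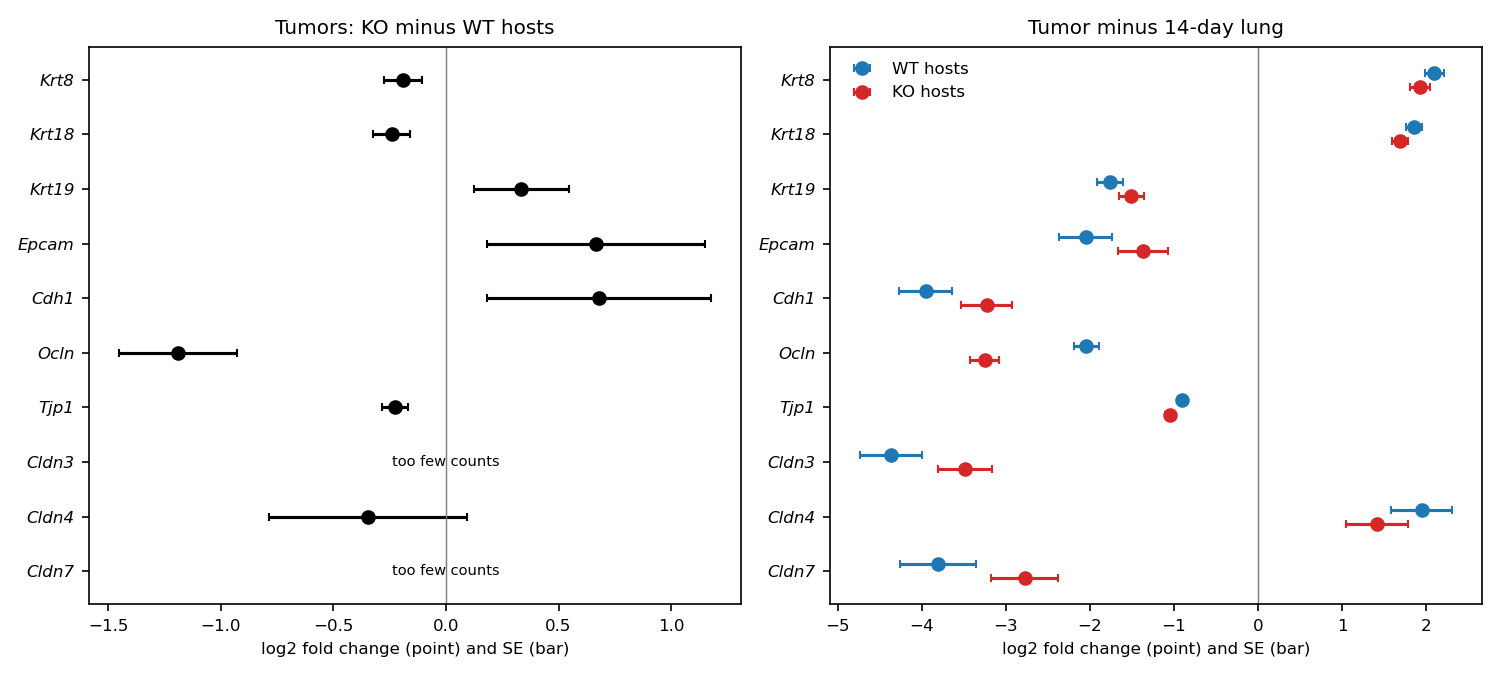
Log2 fold changes of the 10 genes (points) with standard errors (bars). The left panel gives tumors of KO minus WT hosts, where *Cldn3* and *Cldn7* had too few counts for the fit and *Ocln* lies farthest from 0 at -1.19; the right panel gives tumors minus 14-day lungs, blue for WT and red for KO hosts, where *Krt8*, *Krt18* and *Cldn4* lie above 0 and the other 7 below.

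Between host genotypes the fold changes of the 10 genes in tumors had both signs. This is the contrast on which they were listed, so the values and the count past the limits (adjusted p under 0.05 and at least 2-fold) are a description, and nothing is read from them. Of the 8 genes that passed the filter on low counts, 0 were past the limits as higher and 1 as lower in KO hosts, beside 1.06% of 13830 genes in the same comparison, of which 139 were higher and 7 lower in KO hosts. The median log2 fold change of the 8 was -0.21, beside -0.0098 over all genes, and for every 1 of the 10 genes the WT and KO tumors overlapped in CPM; over all genes tested 1.95% did not.

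The gene past the limits was *Ocln*, which as a listed gene has no independent test here. Its CPM in the WT tumors was 13.5, 22.2, 12.9, 11.2, 16.6 and 9.36 (replicates 1 to 6), and in the KO tumors 6.42, 7.22, 2.90, 10.7, 4.65 and 5.71. Only KO replicate 4 reached into the WT range, above WT replicate 6. The log2 fold change was -1.19 ± 0.26 (SE), from 13 to 53 expected counts in KO and 43 to 112 in WT tumors. Without KO replicate 5 it was -1.11, without KO replicate 6 -1.16, without WT replicate 2 -1.02 and without WT replicate 5 -1.14, and under each of these 4 it was no longer past the limits. The FPKM of *Ocln* per CPM ranged 1.81-fold over the tumors, as RSEM sets a length for each sample from its isoforms, so its genotypes are compared in CPM.

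The keratin pair overlapped between host genotypes and neither gene was past the limits. *Krt8* ran from 304.3 to 446.7 CPM with a median of 343.6 in WT and from 274.7 to 330.7 CPM with a median of 319.9 in KO tumors, a log2 fold change of -0.19 ± 0.09 (SE). *Krt18* ran from 165.2 to 218.5 CPM in WT and from 134.5 to 182.4 CPM in KO tumors, at -0.24 ± 0.08. WT replicate 3 was the highest tumor and KO replicate 5 the lowest for both. *Tjp1* was the steadiest of the 10, with 251.4 to 307.4 CPM in WT and 223.2 to 267.2 CPM in KO tumors, at -0.23 ± 0.06.

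*Cdh1*, *Epcam* and *Krt19* had fold changes above 0, with wide spread among the tumors of a host genotype. For *Cdh1* the WT tumors gave 11.2, 6.15, 7.30, 10.5, 9.08 and 46.6 CPM, and the KO tumors 40.4, 35.4, 23.9, 8.48, 27.1 and 9.67 CPM. The KO tumors thus split into 4 high and 2 low, while 5 WT tumors were low and WT replicate 6 was the highest of all 12. The log2 fold change was 0.68 ± 0.50 (SE), and 1.44 without WT replicate 6, which put the gene past the limits. *Epcam* gave 2.5 to 22.6 CPM in WT and 3.63 to 25.1 CPM in KO tumors, at 0.67 ± 0.49, and 1.27 without WT replicate 6, which did not. *Krt19* gave 14.4 to 33.3 CPM in WT and 15.6 to 35.9 CPM in KO tumors, at 0.34 ± 0.21. *Cldn4* was at -0.35 ± 0.44, with medians of 3.67 CPM in WT and 3.39 CPM in KO tumors. With 1 tumor left out, *Krt19* ranged from 0.21 (without KO replicate 2) to 0.54 (without WT replicate 6), *Epcam* fell to 0.37 (without KO replicate 2) and *Cldn4* ranged from -0.59 (without KO replicate 1) to -0.12 (without WT replicate 6).

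In the lists of other keratins, other claudins, tight junctions, adherens junctions, desmosomes, epithelial surface and epithelial regulators, 0 genes were called between host genotypes in tumors, by edgeR or DESeq2. At an unadjusted p under 0.05 there were 2 of 12 tested tight junction genes, 4 of 10 adherens junction genes, 1 of 9 desmosome genes and 0 in the other lists, beside 15.5% of all genes. Among those past an adjusted p of 0.05 but under 2-fold (edgeR) were *Nectin3* at -0.68 ± 0.11 (adjusted p = 0.00325), the desmosome linker *Ppl* at -0.43 ± 0.10 (adjusted p = 0.0244) and the polarity gene *Pard3* at -0.29 ± 0.07 (adjusted p = 0.0429), each lower in KO hosts and named after their values were seen. Over the other lists edgeR called 1 gene, the dendritic cell and macrophage integrin *Itgax* at 1.00 ± 0.16 (adjusted p = 0.00177), and DESeq2 also called the adipocyte lipid droplet gene *Plin1* at 1.15 ± 0.35 (adjusted p = 0.0326). At an unadjusted p under 0.05 there were 7 of 11 leukocyte and 7 of 8 adipocyte genes, with a median log2 fold change of 0.60 and 0.82. The median was 0.41 over 8 genes of mammary epithelium (1 at such a p), -1.15 over 4 skin genes (0 at such a p), 0.01 over 8 endothelial genes and -0.12 over 8 genes of proliferation. It was 0.33 over 10 epithelial regulators (10 above 0) and 0.44 over 7 epithelial surface genes (5 above 0). Over the tight junction and adherens junction genes it was -0.04 each, and over the desmosome genes -0.19. Summed leukocyte markers were 344 to 707 CPM in WT and 603 to 908 CPM in KO tumors. The part of these other cells in the values of the 10 genes was not tested.

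The spread among tumors of the same host genotype differed sharply between the 10 genes. The within-group SD of log2(CPM + 1) was 0.95 for *Cdh1* and 0.91 for *Epcam*, above that of 99.2% and 99.1% of the genes tested, whose median was 0.207. *Cldn4* stood at 0.70, *Ocln* at 0.47 and *Krt19* at 0.40. The keratin pair lay below the median with 0.16 for *Krt8* and 0.15 for *Krt18*, and *Tjp1* stood at 0.0882, above only 4.61% of genes. From the lowest to the highest tumor *Epcam* spanned 10.0-fold, *Cldn4* 8.01-fold, *Ocln* 7.66-fold and *Cdh1* 7.57-fold in CPM, against 1.63-fold for *Krt8* and 1.38-fold for *Tjp1*. In lungs the SD of *Cdh1* was 0.0638, above that of 1.55% of genes.

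The same tumors tended to be high or low for *Cdh1*, *Epcam*, *Krt19* and the listed claudins. Correlations were taken over the 12 tumors on log2(CPM + 1) after centring within host genotype; the points share a cell line, a pair of genes shares each tumor's library size, and no test was made. *Epcam* and *Cdh1* had a Pearson r of 0.90, *Cdh1* and *Cldn4* 0.88, *Krt19* and *Epcam* 0.84, and *Cldn3* and *Cldn7* 0.88 at very low counts. The 15 pairs among *Cdh1*, *Epcam*, *Krt19*, *Cldn3*, *Cldn4* and *Cldn7* ran from 0.48 to 0.90. *Krt8*, *Krt18* and *Tjp1* formed the other block, with r from 0.63 to 0.88, and the 18 pairs between the blocks ran from -0.86 to -0.24. *Ocln* belonged to neither: r was -0.51 with *Cdh1* and 0.29 with *Tjp1*. These blocks were named after the values were seen, and single pairs in them are loose. With 1 tumor left out, pairs of the block of *Cdh1* fell as low as 0.31 (*Cdh1* and *Cldn7*) and *Krt18* and *Krt19* turned to 0.06. Without the 2 tumors farthest from the median of the first gene, *Krt19* and *Cldn7* had r = 0.12, *Krt19* and *Cldn4* 0.12 and *Epcam* and *Cldn7* 0.30, whereas *Epcam* and *Cdh1* had 0.79 and *Cdh1* and *Cldn4* 0.88. Library size had r = -0.31 with *Cdh1*.

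**Figure D3:**
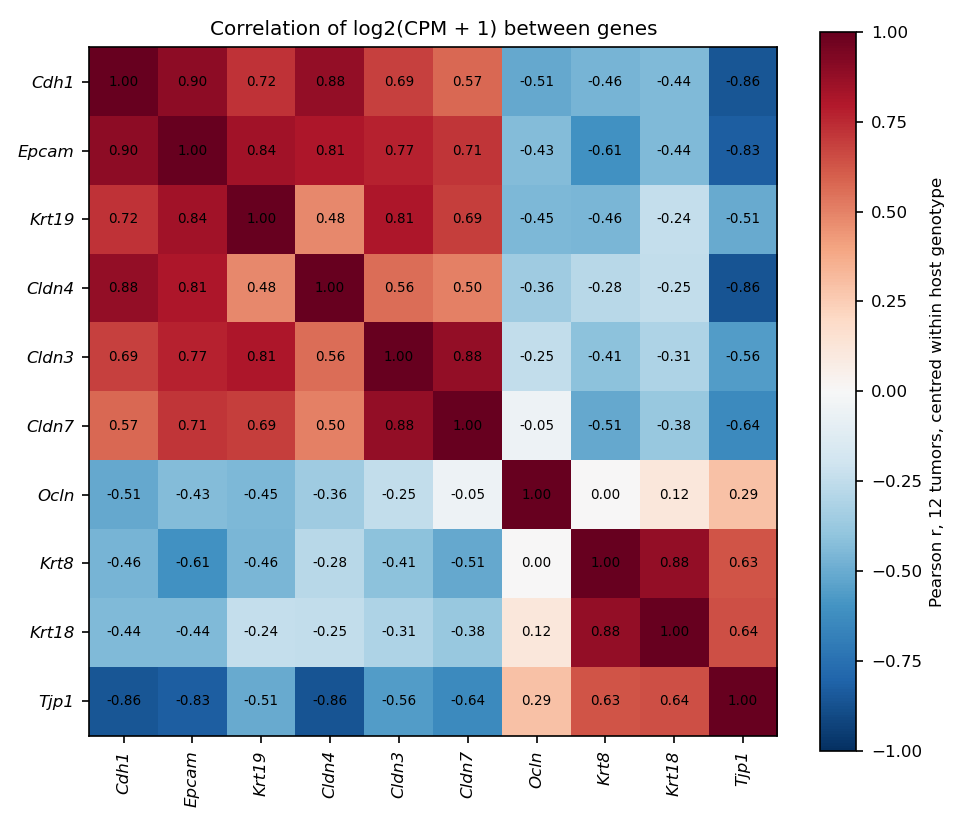
Pearson r between the 10 genes over 12 tumors on log2(CPM + 1), centred within host genotype, from blue (-1) to red (1). The upper left block of *Cdh1*, *Epcam*, *Krt19* and the 3 claudins is red, with 15 pairs from 0.48 to 0.90, and its 18 pairs with *Krt8*, *Krt18* and *Tjp1* are blue.

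Many of the 20 marker lists moved with *Cdh1* across the tumors, lists of other tissues among them. The summed level of the epithelial surface list had r = 0.97 with *Cdh1*, that of the epithelial regulators 0.94, of other simple keratins 0.86, of airway 0.84 (a lung list of 1.79 to 4.57 CPM in tumors), of mammary epithelium 0.84, of tight junctions 0.81, of basal keratins 0.81, of endothelium 0.80, of other claudins 0.79, of mesenchymal genes 0.72 and of skin 0.67. Desmosomes had 0.65, fibroblasts 0.63, adipocytes 0.58, skeletal muscle 0.56, adherens junctions 0.16, alveolar type 1 cells 0.07, leukocytes -0.20, proliferation -0.64 and alveolar type 2 cells -0.70. None of these list correlations was recomputed with a tumor left out. WT replicate 6 was the highest tumor in *Cdh1* and in the surface, regulator and skin lists, so a single tumor can weigh heavily in them. WT replicate 6, the tumor highest in *Cdh1*, had 1130 CPM of skin genes, 476 CPM of basal keratins, 242 CPM of mammary epithelium genes and the highest *Csn1s1* and *Csn2*. KO replicate 1, next in *Cdh1*, had 416 CPM of skin genes and 1030 CPM of basal keratins. KO replicate 2, with *Cdh1* at 35.4 CPM, had 6.29 CPM of skin genes and 27.5 CPM of basal keratins, and the highest sum of mammary epithelium genes of the 12 tumors, 249 CPM. In WT replicate 4, 330.0 CPM of skin genes stood beside a *Cdh1* of 10.5 CPM. Epithelial surface genes summed to 145 CPM in KO replicate 2 and 175 CPM in WT replicate 6, against 54.0 to 80.7 CPM in the other 5 WT tumors. KO replicates 1, 5 and 3 had 129, 113 and 102 CPM, and KO replicates 6 and 4 had 78.5 and 58.3 CPM. The part of skin, normal mammary or other epithelium, fat or other tissue in the level of the 10 genes was not tested.

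**Figure D4:**
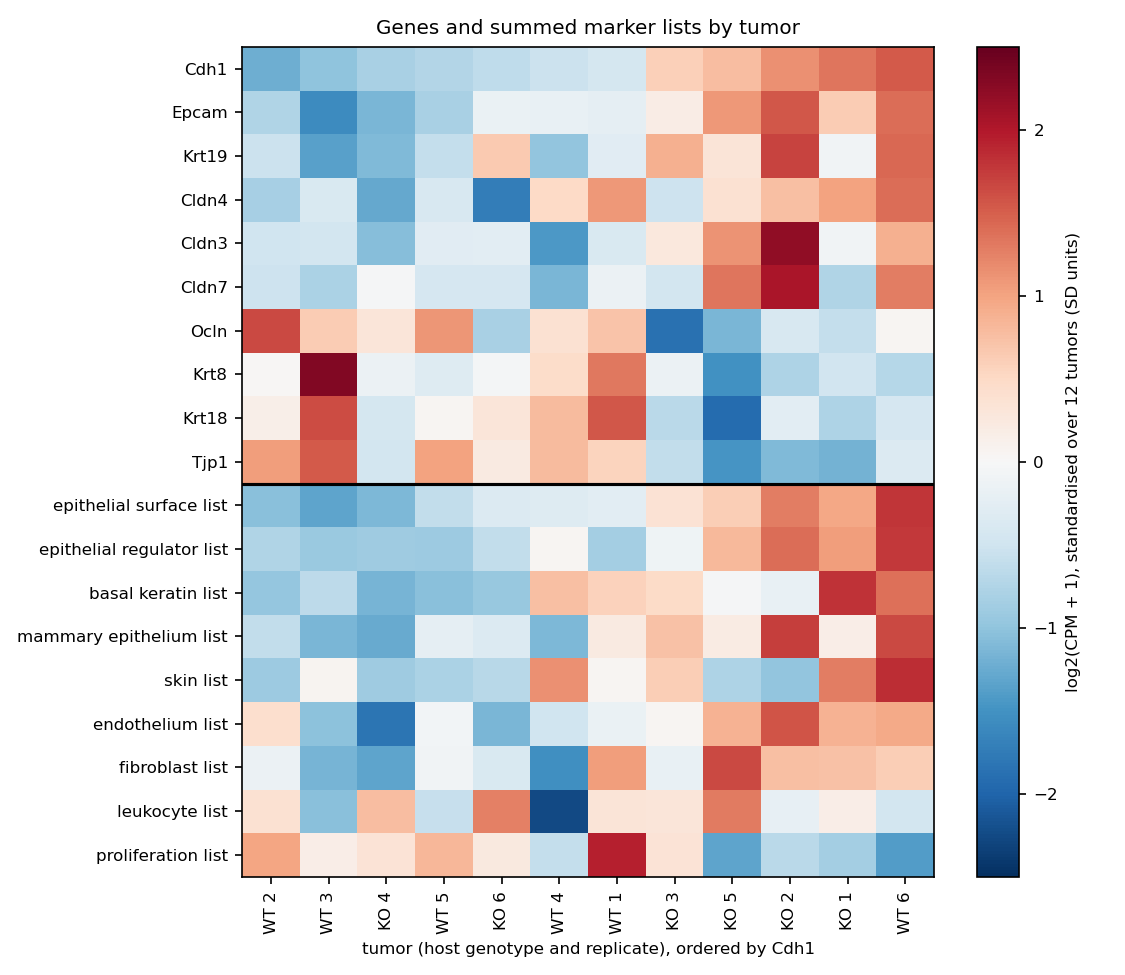
The 10 genes (above the line) and 9 summed marker lists (below it) in 12 tumors, as log2(CPM + 1) standardised over the tumors in SD units, with tumors ordered by *Cdh1*. *Cdh1*, *Epcam* and the epithelial surface and regulator lists are red together in KO 5, KO 2, KO 1 and WT 6, while skin genes are high in WT 6, WT 4 and KO 1 and low in KO 2.

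By the rule fixed for likeness, the genes closest to the mean of the 10 over the tumors were *Ppp1r9b* (r = 0.96), *Klhdc7a* (0.93), *Plekha6* (0.93), *Gdpd5* (0.91), *Tor1aip2* (0.90), *Reep1* (0.89), *Klhl13* (0.88) and *Mmrn2* (0.87), out of 13822 genes over 12 tumors. That mean stands for the block of *Cdh1* more than for the rest, with r = 0.65 with *Cdh1*, -0.06 with *Krt8* and -0.44 with *Tjp1*. Closest to *Cdh1* itself was *Cxadr*, the tight junction protein that also serves as the coxsackievirus and adenovirus receptor, with r = 0.98, and closest to *Epcam* was *St14*, the epithelial membrane protease matriptase, also with r = 0.98.

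In the lungs none of the 9 tested genes was called by genotype or by the presence of a tumor. *Cldn4* did not pass the filter on low counts, and the other 9 were tested in 4 comparisons with limits of an adjusted p under 0.25 and at least 1.5-fold. The number called was 0 in each, by edgeR and by DESeq2, with 0 at an unadjusted p under 0.05; over all genes 8.34% (KO against WT, 14-day), 11.6% (KO against WT, control), 8.64% (14-day against control, KO) and 11.8% (14-day against control, WT) had such a p. Over all 16029 genes, 0.212% were called between KO and WT in 14-day lungs, 0.231% in control lungs, 0.262% between 14-day and control lungs in KO and 0.574% in WT mice. *Cldn3* was at log2 0.22 ± 0.16 (SE) for KO against WT in 14-day lungs, -0.25 ± 0.20 in control lungs, 0.13 ± 0.18 for 14-day against control lungs in KO and -0.34 ± 0.18 in WT mice, with adjusted p of 0.79, 0.65, 0.88 and 0.47. With 1 lung left out these ran from 0.14 to 0.37, -0.40 to -0.13, 0.05 to 0.18 and -0.50 to -0.22, in the same order. *Ocln* was at -0.01 ± 0.07 between KO and WT in 14-day lungs (adjusted p = 0.99), with 50.4 to 65.1 CPM in KO and 50.6 to 68.2 CPM in WT. *Cdh1* was at -0.06 ± 0.04 in the same comparison (adjusted p = 0.79), with 205.7 to 245.3 CPM in KO and 220.5 to 239.4 CPM in WT. A p that misses these limits does not show equal levels; the standard errors of the 9 genes were at most 0.20 in 14-day lungs and 0.23 in control lungs on the log2 scale.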

How the data were processed

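RNA-seq of 12 tumors and 20 lungs was analysed. The authors aligned paired-end reads from stranded mRNA libraries to mm10 with STAR and quantified genes with RSEM, and deposited a table of expected counts for 29511 genes and a table of FPKM values for 29434. Expected counts were rounded to whole numbers. Between samples, CPM on trimmed mean of M-values (TMM) library sizes over all 32 samples is given; SDs and correlations among tumors use those over the 12 tumors. Between genes, FPKM is given. Small structural RNAs (*Rn7s1*, *Rn7s2*, *Rn7sk*) made up 58.1% to 70.2% of summed FPKM in a sample, so FPKM is relative to them.

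Tests were made with edgeR 4.0.16 (R 4.3.3; quasi-likelihood, filterByExpr, one mean per group) in 3 fits, of 12 tumors, 20 lungs and 32 samples, with Benjamini-Hochberg adjustment over all genes tested, and were tested on simulated data. DESeq2 1.42.0, RLE size factors, other filters, other limits, the replicate number as a block and leaving out each sample were tried. The SE of an edgeR log2 fold change is its absolute value divided by the square root of the test's F statistic. It is thus worked back from the test. The SE given for *Plin1* is DESeq2's own estimate. The members, the 20 other gene lists and their order were chosen with earlier results of these data known, and the skin list after the data were seen. Named were the 10 members, list genes past the limits (at most 4 per list, by p) and the 8 genes most like the mean of the members; *Zeb1*, *Grhl2*, *Cldn12*, *Ppl*, *Pard3*, *Plin1*, the milk protein genes, *Cxadr* and *St14*, and *Nectin3* between host genotypes, fall outside this rule and were named after their values were seen. The listed symbols, *Cldn25* and *Pals1*, matched no row of the tables. Coordinates are of GENCODE M21 and RefSeq on GRCm38. Pairs of samples within a group differed by more than sampling noise (chi-square per degree of freedom 2.43 to 15.0 over 72 pairs). Replicates are separate samples of a group by their labels, so p-values measure the spread between these samples. At total counts of 4446323 to 6518501 per tumor, *Cldn3*, *Cldn4* and *Cldn7* had at most 37 counts in a tumor, so their values there rest on few reads.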

Additional observations from a re-analysis of the deposited data

Results flagged for a closer look

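The lowest or highest sample stood far from the rest of its group in 6 of 60 checks of a gene in a group. The rule was the size of its gap against the whole range of the group, with a cutoff passed by about 1 in 20 sets of independent normal values. Of these, 5 were of the same tumor, WT replicate 6, which was the highest of the WT tumors in *Cdh1* (46.58 CPM, next 11.18 CPM), *Epcam* (22.64 CPM, next 7.562 CPM), *Krt19* (33.3 CPM, next 19.92 CPM), *Cldn7* (2.612 CPM, next 0.6989 CPM) and *Cldn3* (2.177 CPM, next 0.7826 CPM). The remaining one was *Krt8* in 14-day WT lung replicate 3, with 121.8 CPM against 86.69 CPM for the next lung of that group. The checks used CPM without a log scale and genes that vary together, so 6 of 60 cannot be set against 1 in 20.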

How the results depend on the processing

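Under the other tool, scaling, filters, limits, fits of the compared groups alone and the replicate block, the 7 counts of called genes and the count of genes not overlapping between tissues stayed within 1.5 times, and of the single-gene fold changes 223 kept direction and call and 1 changed: *Tjp1* in tumors against lungs of WT hosts passed 2-fold at -1.01 with at least 10 counts in every sample. The count of genes called between host genotypes in tumors ran from 0 to 2 around 1 as samples were left out; it was 0 without KO replicate 5, KO replicate 6, WT replicate 2 or WT replicate 5 (*Ocln* lost) and 2 without WT replicate 6 (*Ocln* and *Cdh1*). The other 6 counts stayed the same under each sample left out: 0 in the 4 lung comparisons, 9 in WT and 10 in KO tumors against lungs. Correlations moved more: of the 45 pairs, 36 moved by at least 0.1 with 1 tumor left out (5 changed sign; the largest move was that of *Krt19* and *Tjp1*, from -0.51 to -0.18), 22 without the 2 farthest tumors (0 changed sign) and 5 with a pseudocount of 0.1 (over the 45 pairs, 1 changed sign). The limit with no fold, added after the data were seen, gave 1 in tumors.

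The labels do not say whether a tumor and a 14-day lung of the same number came from 1 mouse. Correlations of deviations between same-numbered samples ran from -0.35 to 0.135 for KO and WT tumors, from -0.0198 to 0.0745 for tumors and lungs of WT hosts and from 0.0496 to 0.178 for those of KO hosts. In KO hosts 6 of 6 pairs were positive, 3 were over 0.1, and 6 of 6 tumors and 5 of 6 lungs correlated best with their own number, a hint from the data; in WT hosts 2 tumors and 1 lung did. With the replicate block 1 gene was called between host genotypes in tumors (*Ocln*, -1.20), 0 in each lung comparison, and 9 and 10 in tumors against lungs, as without it. The block is a term per replicate number shared by all groups of a fit, so it does not model a tumor and a lung of the same mouse. Such pairs remain unaccounted for in the tests of tumors against lungs. Tumors held at most 22 counts of *Cldn3* and 19 of *Cldn7*, so the values of these genes in tumors rest on few reads.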
